A study of Mus musculus with 4 samples.

Results

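The centromere and centrosome genes described here were chosen by name, as every symbol that begins with Cenp followed by a letter (18 genes) or with Cep followed by digits (30 genes), 48 of the 23309 gene symbols measured. CENP proteins build the kinetochore, the structure on the centromere that holds each chromosome to spindle microtubules. CENP-A, a histone H3 variant, marks the centromere, a constitutive network of subunits assembles on it, and motors and microtubule-binding proteins form the outer layers. CEP proteins were named for their place at the centrosome, where they build centrioles, gather pericentriolar material or anchor cilia. Mouse oocytes lose their centrioles during growth and build the meiotic spindle from several acentriolar microtubule-organizing centres, while their kinetochores must carry chromosomes through both meiotic divisions. A Cep or Cenp symbol is a name and not a site of action. Cenpj encodes a centriole protein and Cep55 a protein of the midbody, the bridge left between dividing cells.

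Messenger RNA was sequenced from ICR mouse oocytes in 4 libraries of 60 oocytes or embryos each, from females 21 to 23 days old. The groups were labelled Erk-/- MII, wild-type MII, Erk-/- GV and wild-type GV, with 1 library per group. GV oocytes are fully grown and arrested before meiosis resumes, and MII oocytes are mature eggs arrested in the second meiotic metaphase. The protocols name the hormones PMSG and hCG for all samples, name Btg4-/- rather than Erk-/- females, and do not say which Erk gene was deleted, in which cells or by which Cre line.

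Levels are FPKM, fragments per kilobase of transcript scaled to the library's mapped fragments, so genes can be compared with each other per length, but each value is relative to its library's total and not per oocyte. In such pooled samples, fewer cells and less RNA per cell cannot be told apart. Mapk3, which encodes ERK1, had 34.3 FPKM in labelled Erk-/- MII and 25.7 in wild-type MII, against 52.3 in Erk-/- GV and 333 in wild-type GV. At MII it was thus not lower in the library labelled Erk-/-, which goes against that label, and every genotype difference at MII below rests on that library. All 10 oocyte markers were at 1 FPKM or more in each library (summed level 11061 to 20969 FPKM), theca, stroma and blood markers were listed at 0 in all of them, and 8 or 9 of 12 granulosa and cumulus markers were at 0 (summed level 13.0 to 29.4 FPKM). With 1 library per group there is no replicate check and no test. A ratio of 2 or more in FPKM + 1, counted over the 9990 symbols with a mean of at least 1 FPKM, is used as a rule of size and written as 2-fold higher or 2-fold lower, and 27 Cep and 17 Cenp genes pass that filter. Log2 ratios below are of FPKM + 1, so low genes change less on that scale, and folds are of FPKM itself.

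Cenp transcripts were found in all 4 libraries. Cenp genes at 10 FPKM or more numbered 8 in each MII library, 13 in Erk-/- GV and 15 in wild-type GV. The summed level of all Cenp genes was 579 FPKM in labelled Erk-/- MII and 817 in wild-type MII. It was 654 in Erk-/- GV and 710 in wild-type GV. The 30 Cep genes summed to 475 FPKM in labelled Erk-/- MII and 629 in wild-type MII, against 399 in Erk-/- GV and 343 in wild-type GV. The make-up of the Cenp sum differed between stages. Cenpn alone took 35.6% of it in labelled Erk-/- MII and 39.5% in wild-type MII, while Cenpm took 23.7% in Erk-/- GV and 23.6% in wild-type GV.

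In wild-type oocytes, members of the same kinetochore complex stood in opposite directions at MII. Of the 17 Cenp genes, 6 were 2-fold higher and 7 2-fold lower at wild-type MII than at GV, a share of 35.3% and 41.2%, against 20.6% and 49.6% of all 9990 symbols. The median log2 ratio was -0.66 for Cenp genes and -0.97 over all symbols. Median-of-ratios scaling gave 8 Cenp genes higher and 6 lower (29.6% and 40.4% of all symbols) and turned their median to 0.12, with -0.30 over all symbols. Unscaled, Cenpn, Cenpa, Cenpe, Cenpj, Cenpi and Cenpc1 were the higher ones, and Cenpm, Cenpq, Cenpl, Cenpt, Cenpf, Cenpp and Cenpv the lower ones.

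Cenpa, which encodes the centromeric histone (mm9 chromosome 5, 30969275 to 30977199), had 87.1 FPKM in labelled Erk-/- MII, 92.8 in wild-type MII, 69.0 in Erk-/- GV and 27.5 in wild-type GV. The wild-type GV library stood apart as the low one. Cenpa was thus 3.38-fold higher at wild-type MII than at GV, and 1.26-fold higher in labelled Erk-/- MII than in Erk-/- GV. Cenpb, whose protein binds a DNA box in centromeric repeats, did not pass the filter. It had 0.177 FPKM in labelled Erk-/- MII and 0.0356 in wild-type GV and was listed at 0 in wild-type MII and in Erk-/- GV. Cenpc1 encodes CENP-C, which joins CENP-A nucleosomes to the outer kinetochore, and had low levels. They were 2.96 FPKM in labelled Erk-/- MII, 7.27 in wild-type MII and 1.12 in Erk-/- GV, and the gene was listed at 0 in wild-type GV.

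CENP-N binds the CENP-A nucleosome directly and pairs with CENP-L. Cenpn (chromosome 8, 119445640 to 119465403) was the most abundant Cenp gene at MII, with 206 FPKM in labelled Erk-/- MII and 322 in wild-type MII, against 137 in Erk-/- GV and 98.3 in wild-type GV. Both MII libraries lay above both GV libraries. Its partner gene Cenpl was listed at 0 in 3 libraries and had 11.9 FPKM (10.2 to 13.6) in wild-type GV. Numbers in parentheses after a level are the authors' lower and upper bounds, which cover uncertainty within a library only.

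The 4 subunits CENP-H, CENP-I, CENP-K and CENP-M form 1 assembly, and their transcripts took different courses. Cenpm (chromosome 15, 82064206 to 82075177) had 4.55 FPKM (3.31 to 5.86) in labelled Erk-/- MII and was listed at 0 in wild-type MII, against 155 (145 to 165) in Erk-/- GV and 168 (158 to 178) in wild-type GV. It ranked 1 of the 18 Cenp genes in both GV libraries, but 14 in labelled Erk-/- MII and 16 in wild-type MII. Cenph went the other way, with 96.3 FPKM in labelled Erk-/- MII, 161 in wild-type MII, 33.0 in Erk-/- GV and 117 in wild-type GV. In labelled Erk-/- MII it was 2.92-fold higher than in Erk-/- GV, while in wild-type MII it was 1.37-fold higher than in wild-type GV. Cenpi had 6.52 FPKM in labelled Erk-/- MII, 8.30 in wild-type MII and 2.47 in Erk-/- GV, and was listed at 0 in wild-type GV. Cenpk had 5.78 FPKM in labelled Erk-/- MII and 7.22 in wild-type MII, against 13.4 in Erk-/- GV and 15.2 in wild-type GV. Its locus overlaps that of Ppwd1, and whether the libraries kept strand is not given in the sources used here. Overlap was judged from whole loci and not from exons, so whether its reads mix with those of its neighbour is not known.

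CENP-O, CENP-P and CENP-Q belong to another assembly of the network, and these transcripts were lower at MII in both genotypes, 2-fold except Cenpo in wild type. Cenpq (chromosome 17, 41060004 to 41071500) had 7.60 FPKM (5.69 to 9.01) in labelled Erk-/- MII and 2.01 (1.28 to 2.69) in wild-type MII, against 61.1 (50.2 to 61.7) in Erk-/- GV and 44.0 (36.2 to 44.3) in wild-type GV. Cenpp had 8.79 FPKM in labelled Erk-/- MII and 5.20 in wild-type MII, against 37.3 in Erk-/- GV and 22.7 in wild-type GV. Cenpo had 7.46 FPKM in labelled Erk-/- MII and 13.3 in wild-type MII, against 22.3 in Erk-/- GV and 21.6 in wild-type GV. For each of these genes both MII libraries lay below both GV libraries. The loci of Cenpo and Cenpp also overlap other genes (Adcy3 and Ptrhd1 for Cenpo, and Ecm2, Aspn, Omd and Ogn for Cenpp).

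CENP-T and CENP-W are histone-fold proteins that bind DNA together, and CENP-T recruits the Ndc80 complex. Cenpt had 1.47 FPKM (0.919 to 1.99) in labelled Erk-/- MII and 0.111 in wild-type MII, against 4.98 (3.62 to 6.32) in Erk-/- GV and 13.4 (10.8 to 15.5) in wild-type GV. Cenpw had 18.6 FPKM in labelled Erk-/- MII, 32.9 in wild-type MII, 10.8 in Erk-/- GV and 21.8 in wild-type GV. Cenpt was thus 121-fold lower and Cenpw 1.51-fold higher at wild-type MII than at GV. The wild-type MII value of Cenpt has bounds that reach 0, so the size of that fold is poorly held.

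The genes of the fibrous corona, the outermost kinetochore layer, also parted. Cenpe, the plus-end-directed kinesin that brings chromosomes to the spindle equator (chromosome 3, 134875527 to 134936504), had 40.3 FPKM (38.3 to 41.8) in labelled Erk-/- MII and 61.9 (59.2 to 63.8) in wild-type MII, against 14.4 (13.4 to 15.5) in Erk-/- GV and 25.9 (24.4 to 27.2) in wild-type GV. Cenpf, a large microtubule-binding protein, had 11.2 FPKM (10.5 to 11.9) in labelled Erk-/- MII and 3.44 (3.10 to 3.78) in wild-type MII, against 26.3 (25.0 to 27.6) in Erk-/- GV and 25.6 (24.5 to 26.7) in wild-type GV. Cenpe was above and Cenpf below its GV level in both genotypes. Cenpv had 20.9 FPKM in labelled Erk-/- MII and 23.0 in wild-type MII, against 37.4 in Erk-/- GV and 65.3 in wild-type GV. Cenpj, the centriole-elongation factor also called CPAP, had 53.6 FPKM in labelled Erk-/- MII and 76.1 in wild-type MII, against 28.3 in Erk-/- GV and 32.1 in wild-type GV.

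**Figure D1:**
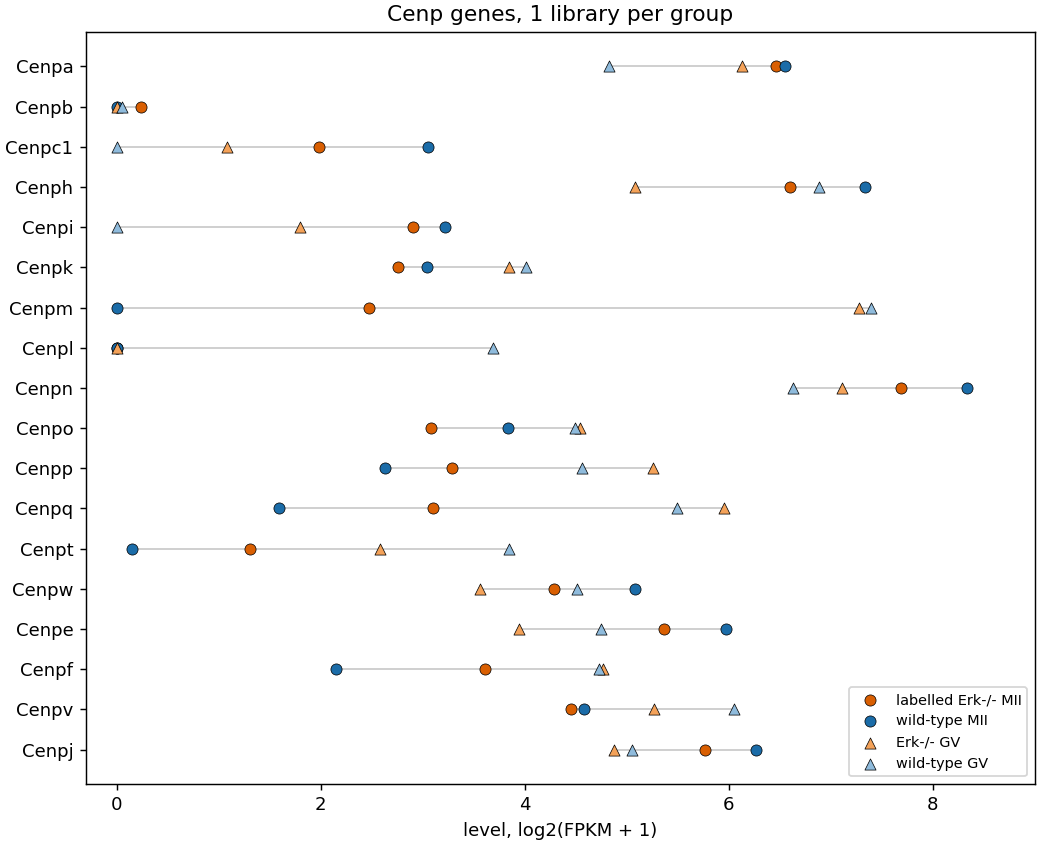
Level of each of the 18 Cenp genes in the 4 libraries, as log2(FPKM + 1) on the horizontal axis, with genes grouped by complex down the page, circles for MII, triangles for GV, orange for libraries labelled Erk-/- and blue for wild type. The grey line spans the lowest to the highest library of a gene, and the symbols of Cenpm (0 to 168 FPKM) lie farthest apart.

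Among the 27 Cep genes that pass the filter, some were higher and others lower at wild-type MII. Of the 27, 11 were 2-fold higher than at GV (40.7%, against 20.6% of all symbols) and 10 were 2-fold lower (37.0%, against 49.6%), with a median log2 ratio of 0.43. The higher ones were, from the largest log2 ratio, Cep170, Cep55, Cep76, Cep110, Cep85l, Cep164, Cep95, Cep192, Cep78, Cep57l1 and Cep44. Among the lower ones were, from the lowest, Cep89, Cep63, Cep128, Cep19, Cep135, Cep350, Cep250, Cep152 and Cep68. Median-of-ratios scaling of the libraries raised the median of Cep genes to 1.23 and that of all symbols to -0.30, and gave 14 Cep genes higher and 6 lower, against 29.6% and 40.4% of all symbols. Among the 11 Cep genes whose mean reached 10 FPKM, 7 were higher and 0 lower, against 23.0% and 48.2% of symbols at that mean.

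Cep55, whose protein brings the ESCRT machinery to the midbody for abscission (chromosome 19, 38129515 to 38148915), had 70.5 FPKM (66.3 to 74.8) in labelled Erk-/- MII and 107 (102 to 112) in wild-type MII, against 20.4 (18.2 to 22.6) in Erk-/- GV and 19.0 (17.1 to 20.9) in wild-type GV. The stages did not overlap, and the GV libraries differed by 1.07-fold. Cep164, a distal-appendage protein needed to start a cilium (chromosome 9, 45575029 to 45636721), was the most abundant Cep gene in both MII libraries. It had 85.2 FPKM (80.6 to 87.0) in labelled Erk-/- MII and 109 (103 to 111) in wild-type MII, against 53.9 (50.5 to 56.2) in Erk-/- GV and 34.4 (32.1 to 36.3) in wild-type GV.

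The genes of centriole duplication and pericentriolar material did not move together. Cep192, a scaffold that recruits Aurora A, PLK4 and gamma-tubulin, had 25.7 FPKM (24.3 to 27.1) in labelled Erk-/- MII and 30.2 (28.6 to 31.4) in wild-type MII, against 8.50 (7.72 to 9.26) in Erk-/- GV and 10.5 (9.71 to 11.3) in wild-type GV. Cep152 and Cep63, which form a ring that docks PLK4 on the centriole, were on the lower side. Cep152 had 2.77 FPKM in labelled Erk-/- MII and 1.15 in wild-type MII, against 3.73 in Erk-/- GV and 4.39 in wild-type GV. Cep63 had 0.857 FPKM (0.535 to 1.17) in labelled Erk-/- MII and 0.0349 in wild-type MII, against 3.79 (2.89 to 4.66) in Erk-/- GV and 7.84 (6.52 to 9.11) in wild-type GV. Cep135, which helps build the centriole cartwheel, had 2.67 FPKM (2.22 to 3.11) in labelled Erk-/- MII and 0.874 (0.647 to 1.11) in wild-type MII, against 14.2 (12.8 to 15.5) in Erk-/- GV and 6.07 (5.36 to 6.79) in wild-type GV. For Cep152, Cep63 and Cep135 the 2 MII libraries were below the 2 GV libraries, and for Cep192 above them.

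Cep57 and its paralog Cep57l1, which hold mother and daughter centrioles together, differed between genotypes at GV in opposite directions. Cep57 had 4.13 FPKM (3.29 to 4.97) in labelled Erk-/- MII and 5.76 (4.79 to 6.73) in wild-type MII, against 1.48 (0.945 to 2.02) in Erk-/- GV and 9.47 (8.20 to 10.8) in wild-type GV. Cep57l1 had 52.7 FPKM in labelled Erk-/- MII and 82.7 in wild-type MII, against 93.6 in Erk-/- GV and 32.8 in wild-type GV. At MII both were higher in wild type. Cep85, which restrains the kinase NEK2, had 17.8 to 30.9 FPKM over the 4 libraries and stayed within 2-fold in every comparison. Cep72, a protein of centriolar satellites with a mean just above the filter (1.01 FPKM), had 0.782 FPKM in labelled Erk-/- MII, 2.32 in Erk-/- GV and 0.918 in wild-type GV and was listed at 0 in wild-type MII.

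Of the genes that set centriole length and capping, Cep76, which limits repeated duplication, had 11.6 FPKM (10.3 to 12.9) in labelled Erk-/- MII and 14.1 (12.6 to 15.4) in wild-type MII, against 0.490 (0.263 to 0.702) in Erk-/- GV and 2.12 (1.69 to 2.58) in wild-type GV. It was 23.7-fold higher at MII in labelled Erk-/- oocytes and 6.63-fold higher in wild type. Cep120, a centriole-elongation factor, had 39.9 FPKM in labelled Erk-/- MII and 34.1 in wild-type MII, against 33.1 in Erk-/- GV and 24.9 in wild-type GV, and no comparison reached 2-fold. Cep97, a partner of the cap protein CP110, did not pass the filter. Its 1.27 FPKM (0.684 to 1.97) in wild-type MII was the only value above 0.

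Appendage and cilium genes held both extremes of the set. Cep89, a distal-appendage protein, had 1.69 FPKM (1.19 to 2.18) in labelled Erk-/- MII and was listed at 0 in wild-type MII, against 13.0 (11.0 to 15.1) in Erk-/- GV and 22.7 (19.7 to 24.3) in wild-type GV. Cep170, of the subdistal appendages, had 2.59 FPKM (2.21 to 2.97) in labelled Erk-/- MII and 8.14 (7.42 to 8.84) in wild-type MII, with 0.483 (0.327 to 0.641) in wild-type GV and a listing at 0 in Erk-/- GV. These genes thus lay at opposite ends in wild-type maturation, Cep89 with a log2 ratio of -4.56 and Cep170 with 2.62. The related Cep170b had 21.2 FPKM in labelled Erk-/- MII and 38.9 in wild-type MII, against 33.4 in Erk-/- GV and 50.5 in wild-type GV, within 2-fold throughout. Cep19, a ciliogenesis protein, was listed at 0 in labelled Erk-/- MII and had 1.50 FPKM in wild-type MII, against 8.55 in Erk-/- GV and 9.98 in wild-type GV. The symbol Cep110 is an older one for centriolin (Cntrl on chromosome 2), and its values were 6.57 FPKM (5.92 to 7.22) in labelled Erk-/- MII, 7.86 (7.13 to 8.60) in wild-type MII, 10.8 (9.78 to 11.8) in Erk-/- GV and 1.19 (0.913 to 1.47) in wild-type GV.

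Other cilium and linker genes followed no single course. Cep350, a large centriole protein, had 1.44 FPKM in labelled Erk-/- MII and 0.725 in wild-type MII, against 1.26 in Erk-/- GV and 4.04 in wild-type GV. Cep78, a centriolar protein linked to cilia, had 18.2 FPKM in labelled Erk-/- MII and 45.7 in wild-type MII, against 12.4 in Erk-/- GV and 16.6 in wild-type GV. The wild-type MII library stood apart as the high one for Cep78. Cep128, of the subdistal appendages, had 4.76 FPKM in wild-type GV and was listed at 0 in the other 3 libraries. Cep290, of the ciliary transition zone, had 0.345 FPKM in labelled Erk-/- MII and 0.370 in wild-type GV and was listed at 0 in the others, and Cep112 was listed at 0 everywhere. Of the proteins that tie the parent centrioles, Cep250 (C-NAP1) had 0.955 FPKM in labelled Erk-/- MII and 0.558 in wild-type MII, against 3.93 in Erk-/- GV and 3.19 in wild-type GV. Cep68, its linker partner, had 3.79 FPKM (3.23 to 4.37) in labelled Erk-/- MII and 0.418 (0.257 to 0.587) in wild-type MII, against 2.44 (1.96 to 2.93) in Erk-/- GV and 2.23 (1.81 to 2.64) in wild-type GV. In Cep68 the wild-type MII library was the low one.

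Cep44, a protein of the proximal centriole, had 29.5 FPKM (23.8 to 30.2) in labelled Erk-/- MII and 46.8 (38.4 to 47.1) in wild-type MII, against 7.90 (5.74 to 9.57) in Erk-/- GV and 21.9 (17.4 to 23.1) in wild-type GV. Cep95 had 26.2 FPKM in labelled Erk-/- MII and 32.6 in wild-type MII, against 20.4 in Erk-/- GV and 10.2 in wild-type GV. Both genes were highest in wild-type MII. Cep70, a microtubule-associated centrosome protein, ranged from 15.2 FPKM in Erk-/- GV to 31.1 in wild-type MII with no comparison at 2-fold. Cep85l, whose locus overlaps Pln, had 4.73 FPKM in labelled Erk-/- MII, 2.45 in wild-type MII and 1.57 in Erk-/- GV, and was listed at 0 in wild-type GV. The loci of Cep120, Cep128, Cep170 and Cep290 overlap other annotated loci as well.

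**Figure D2:**
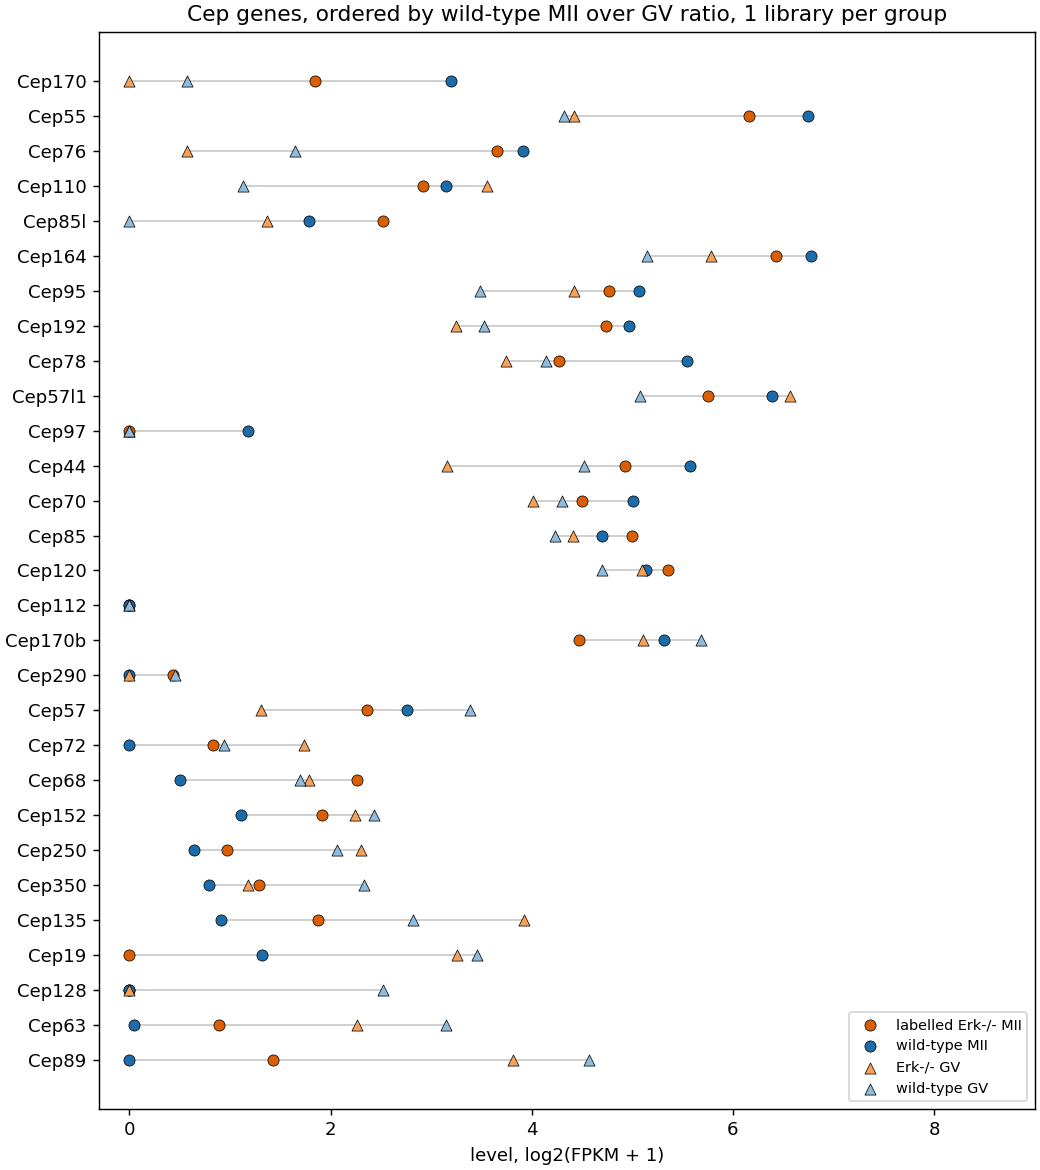
Level of each of 29 Cep genes in the 4 libraries, as log2(FPKM + 1) on the horizontal axis, with genes ordered down the page by the ratio of wild-type MII to wild-type GV, symbols as circles for MII and triangles for GV, and orange for libraries labelled Erk-/- and blue for wild type. Grey lines span the lowest to the highest library of a gene, and Cep170 stands at the top and Cep89 at the bottom.

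In the libraries labelled Erk-/-, fewer Cep genes differed by 2-fold between the stages. Of 27, 7 were 2-fold higher at MII than at GV (25.9%, against 22.9% of all symbols) and 5 lower (18.5%, against 35.6%), with a median log2 ratio of 0.26 against -0.26 over all symbols. Among Cenp genes 3 were higher (17.6%) and 7 lower (41.2%), with a median of 0.00. That median is the ratio of Cenpl, which was listed at 0 in both libraries. With symbols listed at 0 in any library left out, the Cenp median was -0.81, against -0.23 for all symbols kept. The 7 Cep genes were Cep76, Cep170, Cep44, Cep55, Cep192, Cep85l and Cep57, and the 3 Cenp genes Cenph, Cenpe and Cenpi. Lower were Cep19, Cep89, Cep135, Cep63 and Cep250, with Cenpm, Cenpq, Cenpp, Cenpo, Cenpt, Cenpf and Cenpk.

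The 2 maturation ratios come from separate libraries and can be set side by side. Of the Cep genes, 6 were 2-fold higher and 5 2-fold lower at MII in both genotypes, and of the Cenp genes 2 were higher and 5 lower in both, beside 11.4% and 26.7% of all symbols. No member was 2-fold higher in one genotype and 2-fold lower in the other. Of all 9990 symbols, 447 (4.47%) were higher in the libraries labelled Erk-/- and lower in wild type, and 179 (1.79%) the reverse. With shares this small, finding none among so few members is near the share of all symbols. Members 2-fold apart in wild type alone numbered 10 in the Cep set (5 higher, 5 lower) and 6 in the Cenp set (4 higher, 2 lower), beside 7.33% higher and 18.4% lower among all symbols. Those 2-fold apart in the libraries labelled Erk-/- alone were Cep57 and Cenph (higher) and Cenpk and Cenpo (lower), beside 7% higher and 7.18% lower among all symbols.

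**Figure D3:**
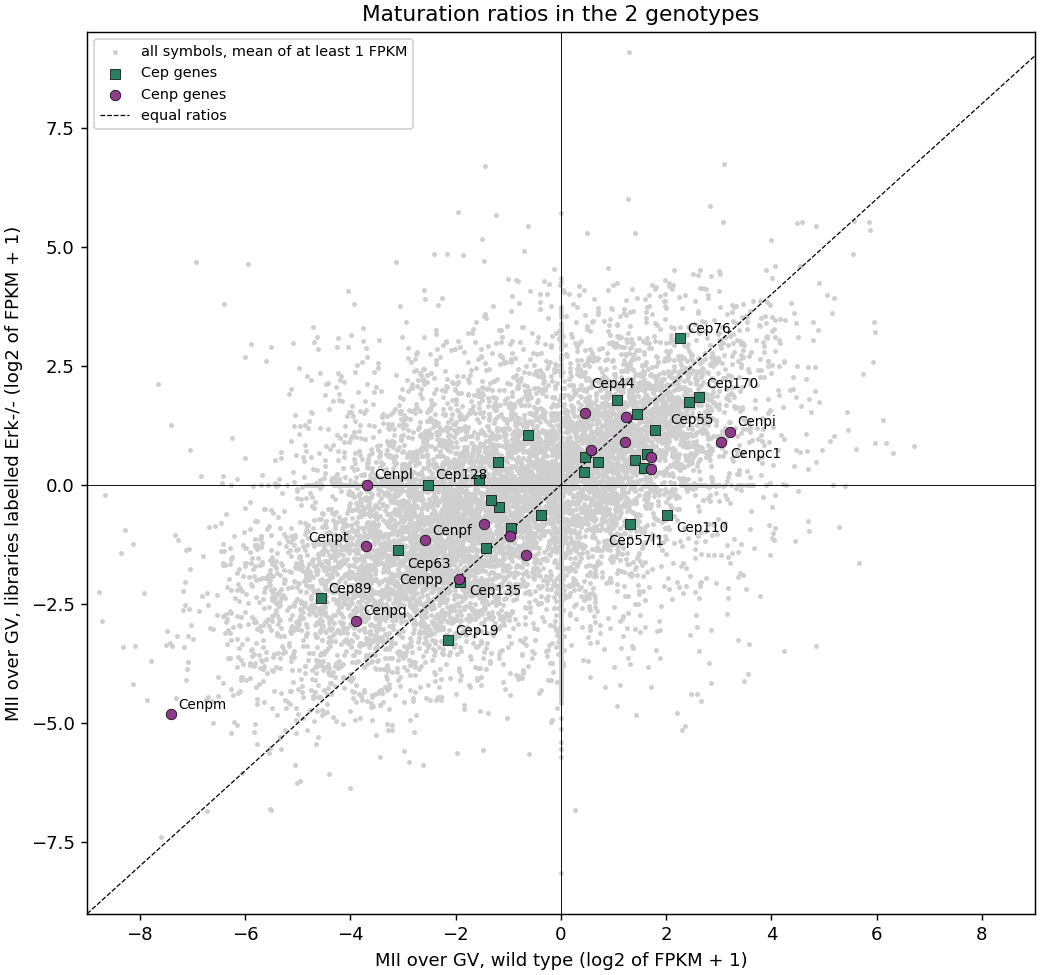
Log2 ratio of MII to GV in the libraries labelled Erk-/- (vertical axis) against the same ratio in wild type (horizontal axis), for 27 Cep genes (green squares), 17 Cenp genes (purple circles) and all 9990 symbols that pass the filter (grey), with a dashed line of equal ratios. Cenpm lies farthest to the lower left, at -4.81 in the libraries labelled Erk-/- and -7.40 in wild type. No member lies beyond 2-fold in opposite directions, where 4.47% (higher in labelled Erk-/-) and 1.79% (the reverse) of all symbols lie.

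The difference between genotypes in the maturation log2 ratio, taken as libraries labelled Erk-/- less wild type, was 2-fold positive in 7 Cep genes (25.9%, against 41.2% of all symbols) and negative in 4 (14.8%, against 18.8%). It was positive in 6 Cenp genes (35.3%) and negative in 4 (23.5%). Medians were 0.04 for Cep, 0.16 for Cenp and 0.59 for all symbols. The largest positive differences were those of Cenpl (3.69), Cenpm (2.59), Cep128 (2.53), Cenpt (2.42), Cep89 (2.18), Cep63 (1.73) and Cep57 (1.68), and the largest negative ones those of Cep110 (-2.65), Cenpc1 (-2.15), Cep57l1 (-2.13) and Cenpi (-2.10). Of these genes, Cenpl and Cep128 were above 0 in wild-type GV alone. Cenpc1 and Cenpi were listed at 0 in wild-type GV, and Cenpm and Cep89 in wild-type MII. Under median-of-ratios scaling 6 Cep genes were positive and 8 negative, 3 Cenp genes were positive and 5 negative, against 32.7% and 26.6% of all symbols, and the medians turned to -0.48 and -0.46, against 0.10 for all symbols.

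At MII itself, most members were within 2-fold between genotypes. In labelled Erk-/- MII, 3 Cep genes were 2-fold higher than in wild-type MII (11.1%, against 31.4% of all symbols) and 3 lower (11.1%, against 7.43%). Among Cenp genes 4 were higher (23.5%) and 1 lower (5.88%). The median log2 ratio was -0.23 for Cep and -0.28 for Cenp genes, against 0.31 for all symbols, and scaling moved these to -0.71, -0.75 and 0.00. With scaling, 8 of 27 Cep and 7 of 17 Cenp genes were lower, against 17.1% of all symbols. A pseudocount of 0.1 FPKM gave 7 Cep genes higher (38.4% of all symbols), and 0 of the 11 Cep genes whose mean reached 10 FPKM were higher (33.1% of symbols at that mean).

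The higher genes all had under 4 FPKM in wild-type MII. Among them were Cep68 (9.07-fold), Cep89, Cenpm, Cenpq (3.77-fold), Cenpf (3.26-fold) and Cenpt (13.3-fold), where Cep89 and Cenpm were listed at 0 in wild-type MII. The lower ones were Cep170 (3.14-fold), Cep78 (2.50-fold), Cep19, listed at 0 in labelled Erk-/- MII, and Cenpc1 (2.46-fold). Of the abundant members, Cep120 (1.17-fold) and Cep85 (1.24-fold) were higher in labelled Erk-/- MII. Cenpn, Cenph, Cenpe, Cenpj, Cep55, Cep57l1 and Cep164 were each 1.28-fold to 1.67-fold higher in wild-type MII. Cep170b was higher there by 1.83-fold, Cenpv by 1.10-fold and Cenpa by 1.06-fold. With scaling, Cenpn, Cenph, Cenpe, Cenpj, Cep55 and Cep57l1 passed 2-fold in that direction (log2 ratios of labelled Erk-/- over wild-type MII -1.27 to -1.03). Cep170b also passed it (-1.365).

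The genotypes also differed at GV, before maturation. In Erk-/- GV, 4 Cep genes were 2-fold higher than in wild-type GV (14.8%, against 18.4% of all symbols) and 5 lower (18.5%, against 22.9%), and 3 Cenp genes were higher and 3 lower (17.6% each). The higher ones were Cep110 (9.06-fold), Cep57l1 (2.86-fold), Cep135 (2.33-fold), Cenpa (2.51-fold), and Cep85l, Cenpi and Cenpc1, which were listed at 0 in wild-type GV. The lower ones were Cep57 (6.39-fold), Cep76 (4.33-fold), Cep350 (3.21-fold), Cep44 (2.77-fold), Cenph (3.56-fold), Cenpt (2.69-fold), and Cep128 and Cenpl, which were listed at 0 in Erk-/- GV. With 1 library per group, this spread at GV is of the same kind as the differences at MII, and neither can be told apart from variation between libraries.

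**Figure D4:**
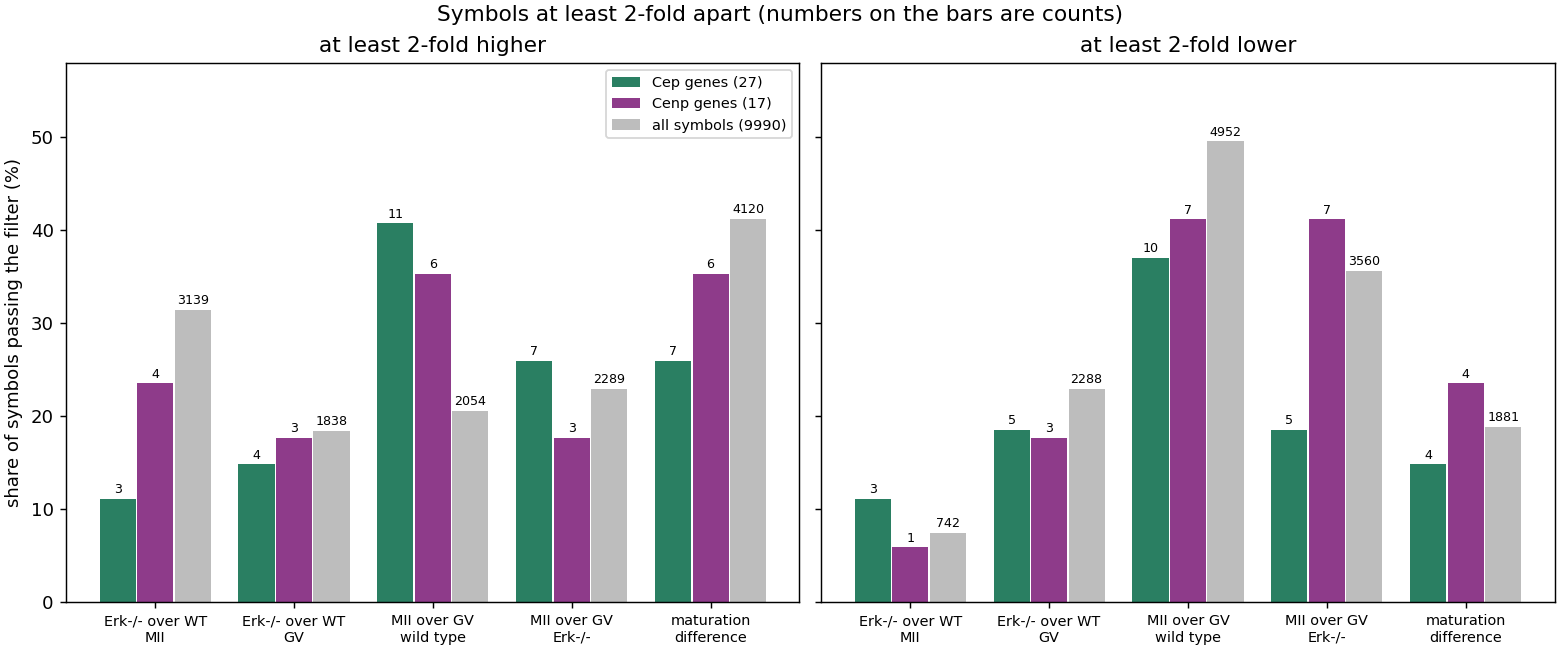
Share of symbols that were 2-fold higher (left) or lower (right) in each of the 5 comparisons, in percent of those passing the filter, for 27 Cep genes (green), 17 Cenp genes (purple) and all 9990 symbols (grey), with the counts above the bars. For wild-type MII over GV the green and purple bars of higher genes stand at 40.7% and 35.3%, against 20.6% in grey.

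Set against the authors' bounds, these differences were wider than the uncertainty within a library in most members. Where both values were above 0 and inside their own bounds, the bounds of wild-type MII and wild-type GV did not overlap in any of 23 Cep genes (13 higher, 10 lower) or 9 Cenp genes (3 higher, 6 lower). Over all symbols, 30.7% were higher and 57.7% lower by the same rule. Between labelled Erk-/- MII and wild-type MII, 10 of 23 Cep genes were higher and 10 lower, and 3 of 12 Cenp genes were higher and 5 lower, against 47.5% and 27.2% of all symbols. At GV, 8 of 24 Cep genes were higher in Erk-/- and 8 lower, and 3 of 11 Cenp genes were higher and 3 lower, against 36.1% and 39.5% of all symbols. Between labelled Erk-/- MII and Erk-/- GV, 13 of 24 Cep genes were higher and 9 lower, and 5 of 13 Cenp genes were higher and 8 lower, against 31.6% and 52.1%. The values of Cenpa, Cenph, Cenpn and Cenpv lay above their own upper bound in at least 1 library, and no bounds are quoted for those values. Cenpn lay inside its bounds in no library, Cenph in Erk-/- GV alone, and Cenpa in neither MII library.

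The other genes of these pathways, taken from lists, also differed in direction. The constitutive network counts 16 subunits when the genes that carry other symbols in the files are added (Mlf1ip for CENP-U, Itgb3bp for CENP-R, Apitd1 for CENP-S and Stra13 for CENP-X). Of these 16, 4 were 2-fold higher and 7 lower at wild-type MII than at GV, beside 20.6% and 49.6% of all symbols. The 4 were Cenpn, and Cenpc1, Cenpi and Mlf1ip, which were listed at 0 in wild-type GV. Of the 7, Cenpl, Cenpm and Itgb3bp were listed at 0 in wild-type MII. In the libraries labelled Erk-/-, 2 of the 16 were higher and 8 lower at MII, beside 22.9% and 35.6% of all symbols. Mlf1ip had 8.21 FPKM in labelled Erk-/- MII, 25.1 in wild-type MII and 17.1 in Erk-/- GV and was listed at 0 in wild-type GV. This partner of CENP-O, CENP-P and CENP-Q thus did not follow them in wild type, where its ratio rests on that 0. Like them, it was lower in labelled Erk-/- MII than in Erk-/- GV. Apitd1 had 107 FPKM in labelled Erk-/- MII and 47.2 in wild-type MII, against 263 in Erk-/- GV and 110 in wild-type GV. Itgb3bp was listed at 0 in both MII libraries and had 3.32 FPKM in Erk-/- GV and 8.88 in wild-type GV.

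Among 15 outer-kinetochore genes that pass the filter, 3 were 2-fold higher and 7 lower at wild-type MII than at GV (20.0% and 46.7%, against 20.6% and 49.6% of all symbols; median log2 ratio -0.98). In labelled Erk-/- MII 4 were higher than in wild-type MII and 0 lower (26.7% higher, against 31.4% and 7.43% of all symbols; median 0.61). These shares are near those of all symbols. Zw10 and Zwilch encode subunits of the complex that brings dynein to the kinetochore. Zw10 had 18.7 FPKM in labelled Erk-/- MII and 1.13 in wild-type MII, against 57.4 in Erk-/- GV and 29.1 in wild-type GV. Zwilch had 4.07 FPKM in labelled Erk-/- MII and 0.0338 in wild-type MII, against 30.9 in Erk-/- GV and 23.9 in wild-type GV. Ska1, a microtubule-coupling factor, had 13.8 FPKM in labelled Erk-/- MII and 2.39 in wild-type MII, against 40.8 in Erk-/- GV and 45.4 in wild-type GV. Its partner Ska2 had 13.1 FPKM in labelled Erk-/- MII, 1.12 in wild-type MII and 6.55 in Erk-/- GV, and was listed at 0 in wild-type GV.

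The 13 centriole-assembly genes that pass the filter had 4 higher and 2 lower at wild-type MII than at GV (30.8% and 15.4%, against 20.6% and 49.6% of all symbols; median 0.51). In labelled Erk-/- MII 1 was higher and 1 lower than in wild-type MII (7.69% each, against 31.4% and 7.43%; median -0.45). Plk4, the kinase that starts centriole duplication, had 64.2 FPKM in labelled Erk-/- MII and 96.0 in wild-type MII, against 42.0 in Erk-/- GV and 11.2 in wild-type GV. Ccp110, the centriole cap, had 44.9 FPKM in labelled Erk-/- MII and 65.4 in wild-type MII, with 6.81 in wild-type GV and a listing at 0 in Erk-/- GV. Cetn2, a centrin, stood apart in wild-type MII alone, with 54.5 FPKM in labelled Erk-/- MII and 3.48 in wild-type MII, against 47.1 in Erk-/- GV and 58.6 in wild-type GV. Poc5, a centriole protein that binds centrin, had 5.67 FPKM in labelled Erk-/- MII and 13.4 in wild-type MII, against 1.22 in Erk-/- GV and 10.4 in wild-type GV. Cntrob, of daughter centrioles, had 21.3 FPKM in labelled Erk-/- MII and 37.0 in wild-type MII, against 9.69 in Erk-/- GV and 9.41 in wild-type GV.

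All 8 augmin genes, whose complex branches spindle microtubules, had log2 ratios below 0 in wild-type maturation, beside 6319 of all 9990 symbols. Haus4 was close to 0 (-0.06), and 6 of the 8 were 2-fold lower (75.0%, against 49.6% of all symbols), with a median of -2.34. In labelled Erk-/- MII 4 were 2-fold higher than in wild-type MII and 0 lower (50.0% higher, against 31.4% of all symbols). Haus8 had 67.2 FPKM in labelled Erk-/- MII and 6.72 in wild-type MII, against 93.3 in Erk-/- GV and 95.1 in wild-type GV. Haus6 had 4.63 FPKM in labelled Erk-/- MII and 0.0250 in wild-type MII, against 8.01 in Erk-/- GV and 18.1 in wild-type GV. Haus7 had 2.99 FPKM in labelled Erk-/- MII and 0.104 in wild-type MII, against 4.43 in Erk-/- GV and 14.1 in wild-type GV. Of 14 genes of pericentriolar material and the gamma-tubulin complex, 3 were higher and 8 lower at wild-type MII than at GV (21.4% and 57.1%, against 20.6% and 49.6% of all symbols; median -1.04). In labelled Erk-/- MII 4 were higher and 1 lower than in wild-type MII (28.6% and 7.14%, against 31.4% and 7.43%; median 0.28), shares near those of all symbols. Cdk5rap2, which tethers gamma-tubulin rings, had 0.581 FPKM in labelled Erk-/- MII and 1.15 in wild-type MII, against 9.87 in Erk-/- GV and 18.0 in wild-type GV. Azi1, which encodes CEP131 of the centriolar satellites, had 3.76 FPKM in labelled Erk-/- MII and 0.388 in wild-type MII, against 5.06 in Erk-/- GV and 11.5 in wild-type GV. Mzt2, of the gamma-tubulin complex, had 1.08 FPKM in labelled Erk-/- MII, 14.2 in wild-type MII, 9.49 in Erk-/- GV and 0.109 in wild-type GV, and Tubgcp3 had 4.31 FPKM in labelled Erk-/- MII and 1.67 in wild-type GV and was listed at 0 in the others.

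A feature that the choice by name did not use is the end of the 3′UTR. Many mRNAs that oocytes translate during maturation carry a cytoplasmic polyadenylation element (CPE), bound by CPEB1, close to the polyadenylation signal. The last 100 bases of the annotated 3′UTR (1 principal transcript per gene, GENCODE release M21, GRCm38) were searched on the transcript strand for TTTTAT or TTTTAAT. The second motif shares its last letters with the polyadenylation signal where they overlap. The oocyte's own 3′ ends were not measured. Of the 44 members that pass the filter, 41 had a 3′UTR long enough, and 11 of these held a motif (26.8%), against 1881 of 9082 among all symbols (20.7%).

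By direction in wild-type maturation, a motif was found in 6 of 15 members that were 2-fold higher at MII (40%), 3 of 9 within 2-fold (33.3%) and 2 of 17 2-fold lower (11.8%). Over all symbols the shares were 37.1% (702 of 1894), 23.3% (637 of 2733) and 12.2% (542 of 4455). The members' shares thus follow those of all symbols, and with so few genes each rests on a handful. By direction in the libraries labelled Erk-/-, the motif was found in 5 of 10, 5 of 20 and 1 of 11 members, against 31.4%, 20.9% and 13.4% of all symbols.

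The following 3′UTR stretches (DNA letters, 5′ to 3′, motif in capitals) were chosen among members that hold a motif. They belong to the more abundant of these that were 2-fold higher at MII in wild type, in the libraries labelled Erk-/- (Cenph) or in both. Cenpa, Cenpj and Cep164 were also abundant and 2-fold higher at wild-type MII, but held neither motif in the window. The motif starts 63 bases before the annotated transcript end in Cenpn, 61 in Cenph, 87 in Cenpe, 89 in Cep55, 14 in Cep44 and 92 in Cep57l1. Cep44 held 3 matches, and the one shown lies after its polyadenylation signal, which starts 23 bases before the end. No AATAAA or ATTAAA was found in the last 100 bases of Cenpe.
Cenpn (chromosome 8): gatcTTTTATccatggcacactgaaactga
Cenph (chromosome 13): ttacTTTTATaacttaaggaataaaaagaa
Cenpe (chromosome 3): aaaaTTTTAATctttccagatgggtataac
Cep55 (chromosome 19): tgtgTTTTATtccttcagattttctaacat
Cep44 (chromosome 8): attcttaaataaatacTTTTAATattttaa
Cep57l1 (chromosome 10): catcTTTTATactttaaaattagtgatgtc

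For comparison, the motif of a member that was 2-fold lower in wild-type MII is printed, starting 43 bases from the end in Cep135.
Cep135 (chromosome 5): catgTTTTATagcaaaatatgaataaaaag

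For contrast, the polyadenylation signal (in capitals) of 3 members that were lower at MII and held neither CPE motif in the window is shown.
Cenpq (chromosome 17): tactgagaattatttttaaaAATAAAaaaa
Cenpt (chromosome 8): cagcctggaaaggaataggaATTAAAgact
Cenpf (chromosome 1): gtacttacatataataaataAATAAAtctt

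**Figure D5:**
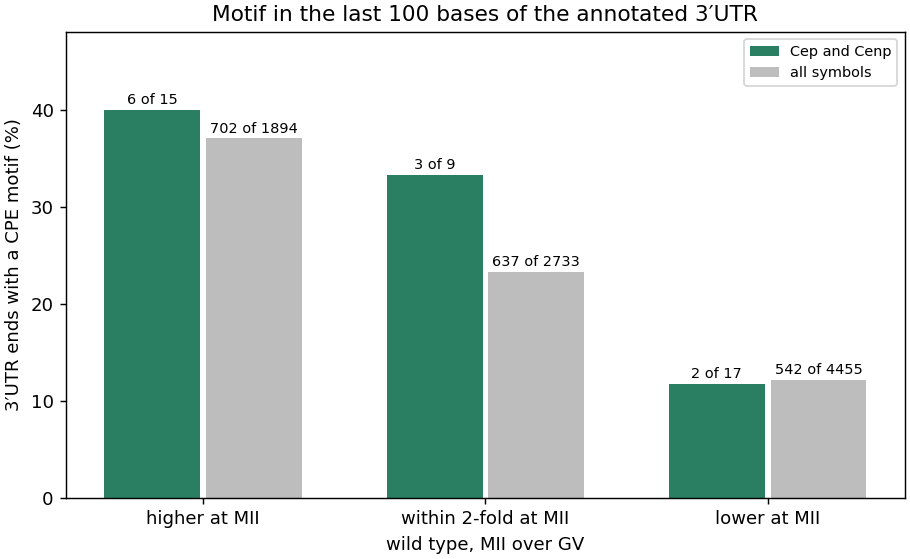
Share of genes with a CPE motif (TTTTAT or TTTTAAT) in the last 100 bases of the annotated 3′UTR, in percent, by direction in wild-type MII over GV, for Cep and Cenp genes (green) and all symbols (grey), with counts above the bars. Both colours stand highest for genes higher at MII (40% and 37.1%) and lowest for genes lower at MII (11.8% and 12.2%).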

How the data were processed

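The authors deposited FPKM per gene and its confidence bounds, per the file headers. CASAVA 1.8, TopHat and build mm9 are named in the submitters' processing notes, and the FPKM program, annotation, confidence level, strandedness and handling of multimapping reads were not given in the sources used here. FPKM holds no counts, so depth in reads is unknown. Steps between low values put it at 1.01, 1.03 and 0.779 times that of wild-type GV in labelled Erk-/- MII, wild-type MII and Erk-/- GV, and bounds at 10 FPKM or more had a median half-width of 8.15% to 9.73%. Each file had 23813 rows, and rows of 1 symbol were summed (no member had several). Locus starts count from 0 (9170 of 21279 loci matched that reading, against 558), so 1 was added. Groups came from the sample titles. Log2 ratios used a pseudocount of 1 FPKM and a mean of at least 1 FPKM over the 4 libraries (Python 3.11.15, pandas 2.3.3), and the ratios were checked on simulated data. Bounds were used only for values above 0 and inside them. All Cenp genes, the extreme and most abundant Cep genes, members listed at 0 and the 3 largest ratios per list are named, and the other members are given for completeness. Other list genes, and 1 member, enter the counts without values of their own here. The members and lists were chosen with earlier results of these data known. Sequences are from GENCODE M21 on GRCm38, to which all 48 members were matched by symbol or older symbol. Alternatives were another pseudocount, median-of-ratios scaling, other filters, leaving out symbols listed at 0, the highest row per symbol and, chosen after seeing the data, Cenpj counted with the Cep set.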

Additional observations from a re-analysis of the deposited data

Results flagged for a closer look

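In 5 Cep genes the ratio of MII to GV pointed in opposite directions in the libraries labelled Erk-/- and in wild type, and the log2 ratios (labelled Erk-/- minus wild type) differed by at least 1. The difference was -2.65 for Cep110 (centriolin), which had the highest of its values in Erk-/- GV and the lowest in wild-type GV. It was -2.13 for Cep57l1, with the same order at GV, and 1.68 for its paralog Cep57, with the reverse order at GV. It was 1.66 for Cep350, where wild-type GV was the highest library, and 1.67 for Cep68, where wild-type MII was the lowest. In the libraries labelled Erk-/- the log2 ratio of MII to GV was only 0.11 for Cep350, where the bounds overlapped, and 0.48 for Cep68. For these 2 genes the opposite direction thus rests on a small ratio. The same rule was not counted over all symbols, so the number of flagged genes has no share to stand beside. With 1 library per group none of these differences was tested. In Cep110, Cep57l1, Cep57 and Cep350 the GV libraries themselves differed by 2.86-fold to 9.06-fold between genotypes.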

How the results depend on the processing

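No paired analysis was possible because each group has 1 library and no ratio comes from a test. No named log2 ratio that was at least 2-fold changed sign. A filter cannot change a sign, and another pseudocount can do so only in the maturation difference, so this check rests mainly on scaling. The counts were alike without a filter and with Cenpj in the Cep set. With the highest row per symbol the member counts could not differ, since no member had several rows. A pseudocount of 0.1 FPKM gave 7 Cep genes higher in labelled Erk-/- than wild-type MII (3 with 1 FPKM). Median-of-ratios scaling moved the share of higher among 2-fold symbols to 59.1% at MII between genotypes (80.9% unscaled), 42.3% in wild-type maturation (29.3%) and 55.2% in the maturation difference (68.7%). It gave 8 Cep and 7 Cenp genes lower in labelled Erk-/- than wild-type MII, 6 Cep genes lower in wild-type maturation, 8 Cep negative and 3 Cenp positive maturation differences, and turned the Cenp median in wild-type maturation to 0.12. A mean of at least 10 FPKM kept 11 Cep and 13 Cenp genes. Between genotypes at MII it left 0 Cep genes higher, 1 Cep lower and 0 Cenp lower, against 33.1% higher and 5.31% lower among symbols at that mean. At GV it left 1 Cep higher, 1 Cep lower, 1 Cenp higher and 1 Cenp lower, against 12.2% higher and 14.9% lower among such symbols. In wild-type maturation it left 7 Cep higher and 0 lower, against 23.01% and 48.22% of symbols at that mean. In the libraries labelled Erk-/- it left 3 Cep higher and 0 lower, against 22.1% and 35.02%. Maturation differences were positive in 0 Cep and negative in 2 Cep and 2 Cenp genes, against 39.1% positive and 14.02% negative among such symbols. All 10 Cep genes lower in wild-type maturation thus had a mean under 10 FPKM. Leaving out symbols listed at 0 kept 21 Cep and 13 Cenp genes. Of these, 1 Cep and 0 Cenp genes were lower in labelled Erk-/- MII than wild-type MII (6.14% of all symbols kept). In Erk-/- GV 1 Cenp gene was higher than in wild-type GV (13.9% of all symbols kept). In labelled Erk-/- maturation 3 Cep genes were lower (31.9%), and 2 Cenp differences were negative (15.8%). Depth in reads is unknown, so a listing at 0 gives no upper limit.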
